A study of Mus musculus with 8 samples.

Results

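In lungs of control mice and of a COPD mouse model, the transcripts of 10 genes of T cell lineage, checkpoint control and tissue homing were followed: Cd3d, Cd3e, Cd3g, Cd4, Cd8a, Cd8b1, Cxcr6, Icos, Ctla4 and Foxp3. The genes were taken as a list of names, and each name was matched through GENCODE release M21, an annotation of mouse genome build GRCm38, to 1 of the 52636 Ensembl gene identifiers in the count files. All 10 were found, and all 10 passed the filter on low counts.

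T cells recognize antigen with a receptor that signals through the CD3 complex, and the coreceptors CD4 and CD8 divide them into helper and cytotoxic cells. After activation, ICOS adds a stimulating signal and CTLA4 a restraining one, and FOXP3 marks regulatory T cells, which hold back the others. CXCR6 is a chemokine receptor of T cells that settle in tissues such as the lung, where its ligand CXCL16 is made by macrophages and epithelium.

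Lung RNA was sequenced in 8 libraries, 2 for each of 4 groups of wild type male C57BL/6 mice, and the deposited values were read counts per gene. Control mice received PBS into the trachea at 10 weeks of age and again from 12 weeks, while porcine pancreatic elastase at 10 weeks and LPS from 12 weeks gave the COPD model. Each kind of mouse was fed either the control diet MF or the same diet with 2% TJ-41, a Japanese herbal medicine also called hochuekkito, starting at the age of 8 weeks. The age at RNA collection, the number of mice behind a library and whether the replicates were separate animals are not given in the sources used here, so that every p-value measures only the spread between libraries.

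The libraries held 18767295 to 20888042 counts. Levels are given as CPM, the counts for every 1000000 counts of a library after TMM scaling, and a difference between groups is given as a log2 fold change ± its standard error. A gene was called changed at a false discovery rate under 0.05 over the 20546 genes tested together with a log2 fold change beyond 1, both taken from the quasi-likelihood test of edgeR, whose p-values were adjusted by Benjamini-Hochberg. With 2 libraries against 2, an exact two-sided permutation test of a single gene could not go below a p of 0.333, and with 4 against 4 not below 0.0286. Replicate 2 of the COPD model on the control diet stood apart. The SD of the log2 difference between replicates over all genes was 0.798 in that group, against 0.394 to 0.469 in the other groups, and Ptprc (the leukocyte marker CD45) was at 109 CPM in replicate 2 and at 454 CPM in replicate 1. The main results that rest on that group are therefore given also without each of its replicates, where the remaining library was assumed to vary like those of the other groups.

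Bulk lung RNA cannot tell fewer T cells from less RNA per T cell, and a difference in any of these levels may be either.

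Before the values, the sequence upstream of 4 of the genes is shown, because the 3 Cd3 genes lie side by side and are transcribed together in T cells, while Cxcr6 showed the largest difference of the 10 genes between the COPD model and control mice on the control diet. On chromosome 9, Cd3g (ENSMUSG00000002033, 44969572 to 44980431, minus strand) and Cd3d (ENSMUSG00000032094, 44981786 to 44987339, plus strand) are divergent, with starts 1355 bases apart, and Cd3e (ENSMUSG00000032093, 44998740 to 45009627, minus strand) follows after a gap of 11401 bases. Cxcr6 (ENSMUSG00000048521) lies on the same chromosome at 123806475 to 123811760, plus strand. The RefSeq tables held a window for 7 of the 10 genes and none for Cd4, Cd8b1 and Icos. Each line gives the 250 bases before the RefSeq start, read 5′ to 3′ on the strand of the gene, in GRCm38.p6. Capitals mark matches on either strand to any of 6 short motifs, namely TGTGGT for RUNX, CACCTG for an E box, AGGAAG for ETS factors, AGATAA for GATA factors, CTTTGA for TCF and LEF factors, and TATAAA for a TATA box.
Cd3g, chr9:44980432-44980681, minus strand: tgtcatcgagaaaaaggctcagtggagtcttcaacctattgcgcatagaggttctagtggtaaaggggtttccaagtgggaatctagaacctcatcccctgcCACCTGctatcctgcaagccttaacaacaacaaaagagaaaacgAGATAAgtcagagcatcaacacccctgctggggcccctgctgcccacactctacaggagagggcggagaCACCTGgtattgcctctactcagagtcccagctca
Cd3d, chr9:44981536-44981785, plus strand: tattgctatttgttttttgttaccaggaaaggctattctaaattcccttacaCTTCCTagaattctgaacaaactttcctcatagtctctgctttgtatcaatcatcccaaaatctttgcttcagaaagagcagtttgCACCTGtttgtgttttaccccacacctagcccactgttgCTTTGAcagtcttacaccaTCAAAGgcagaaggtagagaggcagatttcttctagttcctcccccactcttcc
Cd3e, chr9:45009612-45009861, minus strand: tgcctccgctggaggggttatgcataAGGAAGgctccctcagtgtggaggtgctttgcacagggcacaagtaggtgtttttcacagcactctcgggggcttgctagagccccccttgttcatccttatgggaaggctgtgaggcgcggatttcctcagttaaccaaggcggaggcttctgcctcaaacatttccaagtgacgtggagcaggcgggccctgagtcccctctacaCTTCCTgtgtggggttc
Cxcr6, chr9:123806227-123806476, plus strand: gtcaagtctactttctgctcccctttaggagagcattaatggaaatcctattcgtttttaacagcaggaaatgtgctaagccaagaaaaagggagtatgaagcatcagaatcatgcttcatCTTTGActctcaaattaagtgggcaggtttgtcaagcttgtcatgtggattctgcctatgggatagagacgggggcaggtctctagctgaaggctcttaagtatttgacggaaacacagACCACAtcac
The E box letters occurred in the windows of Cd3g, Cd3d and Ctla4, that is in 3 of 7, and in 17.3% of the 32536 windows of the same length in the table. In the Cd3g window they occurred at 2 positions. The ETS letters were found in Cd3d, Cd3e, Ctla4 and Foxp3, and in 29.6% of all windows. The Cxcr6 window held the RUNX letters, which 13.96% of all windows hold, and the TCF and LEF letters, shared with Cd3d and found in 13.9% of all windows. The GATA letters stood before Cd3g and Foxp3 (9.97% of all windows) and the TATA letters before Foxp3 (12.3%), while the Cd8a window held none of the 6. These matches are a description of letters and not of binding.

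Per base of exon, Cxcr6 had the highest mean level of the 10 genes over the 8 libraries, at 8.63 RPKM (CPM for each kilobase of exon), and Foxp3 the lowest, at 0.453 RPKM. The first place of Cxcr6 did not hold in control mice on the control diet, where Cd3d was at 5.91 and 5.32 RPKM and Cxcr6 at 4.93 and 4.11 RPKM. The order between them was Cd3g (5.91), Cd3d (5.39), Cd8b1 (4.31), Cd4 (3.24), Cd8a (2.95), Cd3e (2.15), Icos (2.08) and Ctla4 (1.15 RPKM). Icos exceeded Ctla4, and Ctla4 exceeded Foxp3, in 8 of 8 libraries. Neighbours in the middle of the order were less separated, since Cd3g exceeded Cd3d in 5 of 8 libraries, Cd4 exceeded Cd8a in 5, and Cd3e exceeded Icos in 6.

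**Figure D1:**
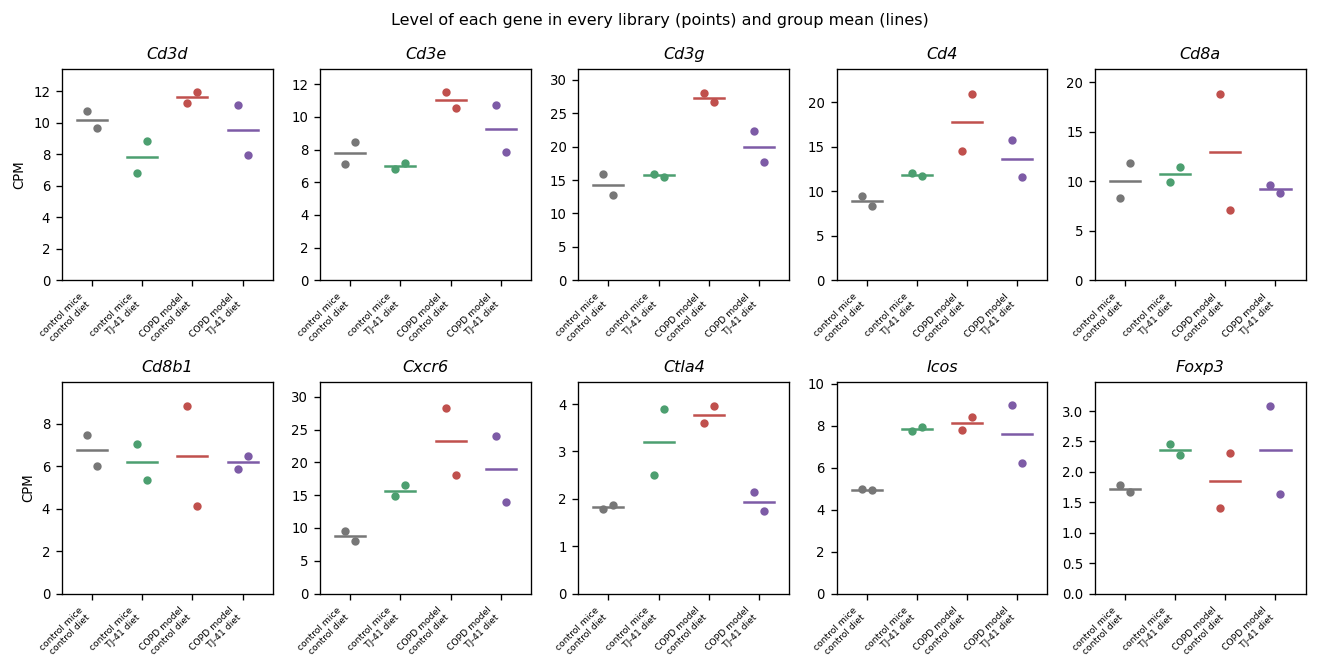
Level of each of the 10 genes (CPM, linear axis from 0) in the 8 libraries, with points for libraries and lines for the mean of the 2 libraries in a group. For Cd3g, both COPD model libraries on the control diet (28.0 and 26.6 CPM) stand above all others, whereas the same libraries lie far apart for Cd8a (18.8 and 7.08 CPM).

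The comparison of the COPD mice model with control mice on the control diet asks which transcripts differ in the diseased lung. None of the 10 genes was called, where 25 of all genes tested were, or 0.122%. At an unadjusted p under 0.05, 5 of the 10 were higher in the model (Cd3g, Cd4, Cxcr6, Ctla4 and Icos) and none was lower, while 4.68% of all genes tested were higher and 3.02% lower at that level. For 7 of the 10, both model libraries lay above both control libraries, which held for 13.6% of all genes. The median log2 fold change was 0.61, beside 0.0073 over all genes.

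Cd3g, Cd3d and Cd3e encode the gamma, delta and epsilon chains of CD3, without which no T cell receptor reaches the cell surface. Cd3g was at 15.8 and 12.7 CPM in the control libraries and at 28.0 and 26.6 CPM in the model libraries on the control diet. The groups were well apart, and the log2 fold change was 0.93 ± 0.20 (adjusted p = 0.234, edgeR). Without replicate 2 of the model it was 0.97, and without replicate 1 it was 0.89. Cd3e went from 7.11 and 8.46 CPM to 11.5 and 10.6 CPM, again without overlap, at 0.50 ± 0.24 on the log2 scale (adjusted p = 0.686), or 0.57 without replicate 2 and 0.44 without replicate 1 of the model. Cd3d was at 10.7 and 9.66 CPM in control mice and at 11.3 and 11.9 CPM in the model, so that its libraries did not overlap but differed by only 0.19 ± 0.25 on the log2 scale (0.15 without replicate 2 and 0.22 without replicate 1 of the model). The 3 chains of the complex thus did not differ by equal amounts, and the ratio of Cd3g to Cd3d CPM was 1.48 and 1.32 in the control libraries against 2.49 and 2.23 in the model libraries. On the TJ-41 diet that ratio overlapped, at 2.35 and 1.75 in control mice and at 2.00 and 2.23 in the model.

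With TJ-41 in the diet, Cd3g was at 16.0 and 15.5 CPM in control mice and at 22.3 and 17.6 CPM in the model, a log2 fold change of 0.34 ± 0.20 (adjusted p = 0.779, edgeR). Its libraries still did not overlap between the groups. Cd3e was at 6.81 and 7.19 CPM against 10.7 and 7.82 CPM, or 0.40 ± 0.24, also without overlap, as 28.5% of all genes were higher in the model on this diet. Cd3d overlapped, with 6.81 and 8.81 CPM in control mice and 11.1 and 7.92 CPM in the model. The difference between the diets in the effect of the model was -0.59 ± 0.28 for Cd3g and -0.10 ± 0.34 for Cd3e on the log2 scale (adjusted p = 0.999 for both, edgeR). Replicate 1 of the model on the TJ-41 diet was the higher of the pair for all 3 genes. Without it the log2 fold changes on that diet were 0.17 for both Cd3g and Cd3e, and without replicate 2 they were 0.51 and 0.62. The summed Cd3 level was 44.1 CPM in it and 33.4 CPM in replicate 2, the latter below the 33.7 CPM of 1 control library on the control diet.

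Averaged over both diets, with 4 libraries against 4, none of the 10 genes was called, while 0.443% of all genes were. Cd3g was higher in the model by 0.64 ± 0.14 (adjusted p = 0.120, edgeR), with means of 23.6 ± 4.68 CPM in the model and 15.003 ± 1.54 CPM in control mice (SD, n = 4). It was the only gene of the 10 whose 4 model libraries all lay above its 4 control libraries, against 3.35% of all genes. Cd3e was higher by 0.45 ± 0.17 (adjusted p = 0.395) and Cd3d by 0.24 ± 0.18 (adjusted p = 0.663). Cd3g was at 0.66 without replicate 2 and at 0.62 without replicate 1 of the model on the control diet.

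**Figure D2:**
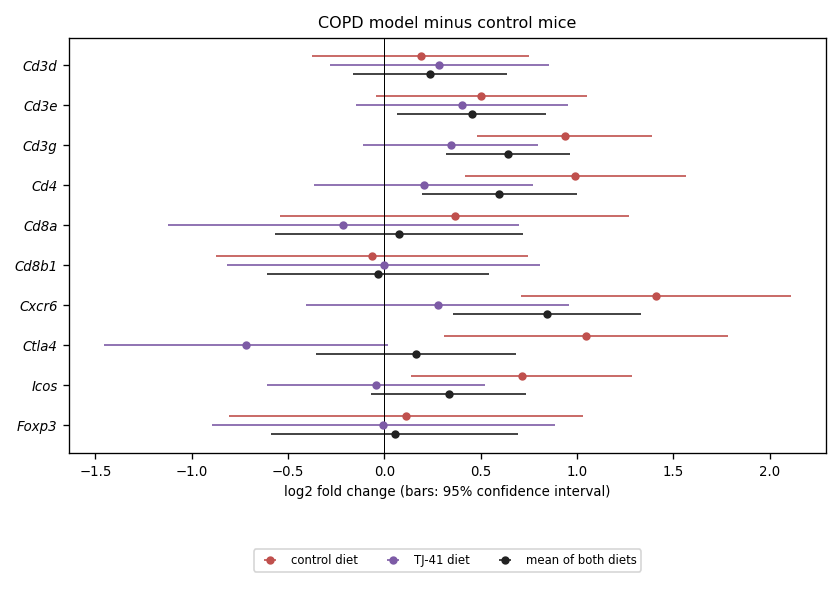
Log2 fold change of the COPD model against control mice (x axis) for the 10 genes, with a colour for each diet and black for the mean of both; bars are 95% confidence intervals. On the control diet the values run from -0.06 for Cd8b1 to 1.41 for Cxcr6, and on the TJ-41 diet from -0.72 for Ctla4 to 0.40 for Cd3e.

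Cd4 encodes the coreceptor of helper and regulatory T cells, which some mouse dendritic cells carry too, and lies on chromosome 6 at 124864692 to 124888221, minus strand (ENSMUSG00000023274). Its level was 9.52 and 8.36 CPM in control mice and at 14.5 and 20.97 CPM in the model on the control diet. Both model libraries were higher, and they differed widely from each other. The log2 fold change was 0.99 ± 0.25 (adjusted p = 0.333, edgeR), just under the threshold of 1. Without replicate 2 of the model, the log2 fold change was 0.70, and without replicate 1 it was 1.22. In mice fed TJ-41 the levels were 12.04 and 11.7 CPM in control mice and 15.8 and 11.6 CPM in the model. Replicate 2 of the model was then at the level of the control libraries, and the log2 fold change was 0.20 ± 0.25. The mean of both diets was 0.60 ± 0.18 (adjusted p = 0.254).

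Cd8a and Cd8b1 encode the alpha and beta chains of CD8, and lie 35933 bases apart on the plus strand of chromosome 6, Cd8b1 (ENSMUSG00000053044) at 71322788 to 71337494 and Cd8a (ENSMUSG00000053977) at 71373427 to 71379173. The beta chain is largely confined to T cells, whereas the alpha chain is also found on a subset of dendritic cells. Cd8a was at 8.26 and 11.8 CPM in control mice and at 18.8 and 7.08 CPM in the model on the control diet. The 2 model libraries enclosed both control libraries, so no direction can be read from the log2 fold change of 0.36 ± 0.40, which was 0.91 without replicate 2 and -0.51 without replicate 1. Cd8b1 behaved alike, with 7.48 and 6.02 CPM in control mice against 8.81 and 4.10 CPM in the model and a log2 fold change of -0.06 ± 0.36. Without replicate 2 that value was 0.39, and without replicate 1 it was -0.72. In mice fed TJ-41, Cd8a was at 9.94 and 11.5 CPM in control mice and at 9.60 and 8.84 CPM in the model. Both model libraries were the lower here, as for 27.9% of all genes, with a log2 fold change of -0.21 and a 95% confidence interval from -1.13 to 0.70. For Cd8b1, 5.997% of the 50-base sequences of its transcripts also occur in other genes, so part of its reads may be assigned elsewhere.

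The ratio of Cd4 to the sum of Cd8a and Cd8b1 CPM was 0.605 and 0.468 in control mice on the control diet and 0.710 and 0.695 on the TJ-41 diet. In the model it was 0.526 and 1.88 on the control diet and 1.02 and 0.753 on the TJ-41 diet. The value of 1.88 belonged to replicate 2, the library that stood apart, and the spread within that group exceeded every difference between groups.

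Cxcr6 had the largest difference of the 10 genes between the model and control mice on the control diet and in the mean of both diets. It was at 9.52 and 7.94 CPM in control mice and at 28.3 and 18.1 CPM in the model on the control diet. Both model libraries were above both control libraries by a wide margin, although they also differed from each other. The log2 fold change was 1.41 ± 0.31, or 2.66-fold, past the fold threshold but with an adjusted p of 0.244 (edgeR). Without replicate 2 of the model it was 1.70, and without replicate 1 it was 1.05. DESeq2 called the gene (adjusted p = 0.00402), among 171 genes called in all. So did edgeR's exact test (adjusted p = 0.00836), among 210. The same held for edgeR's quasi-likelihood test on all genes with at least 1 count (adjusted p = 0.0338), among 147. The main test called 25 genes. Over all alternatives the log2 fold change ran from 1.05 to 1.70 and the adjusted p from 0.00402 to 0.829.

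Among TJ-41-fed mice, Cxcr6 was at 14.8 and 16.6 CPM in control mice and at 24.1 and 13.96 CPM in the model. The model libraries enclosed those of the control mice, and the log2 fold change was 0.28 ± 0.30 (adjusted p = 0.818, edgeR). The mean of both diets was 0.84 ± 0.22 (adjusted p = 0.179), with 21.1 ± 6.34 CPM in the model and 12.2 ± 4.14 CPM in control mice (SD, n = 4). Cxcr6 lies opposite the longer gene Fyco1 without sharing exon bases. Since the strand setting of the counting is not given in the sources used here, Fyco1 was inspected too: it had 1198 and 1777 counts in control mice on the control diet and 1620 and 1485 in the model, without the separation seen for Cxcr6. Cxcl16, which encodes the ligand, was at 81.9 and 90.7 CPM in control mice and at 76.6 and 146 CPM in the model on the control diet, so the groups overlapped.

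Icos and Ctla4 are neighbours on chromosome 1, with Ctla4 (ENSMUSG00000026011) at 60887000 to 60915832 and Icos (ENSMUSG00000026009) at 60977927 to 61000320, both on the plus strand. Icos, the inducible costimulator of activated T cells, is also carried by some innate lymphoid cells. It was at 4.97 and 4.93 CPM in control mice and at 7.82 and 8.41 CPM in the model on the control diet. Replicates were close and groups did not overlap, and the log2 fold change was 0.71 ± 0.25 (adjusted p = 0.526, edgeR), or 0.66 without replicate 2 and 0.76 without replicate 1 of the model. In the TJ-41 groups the control mice were at 7.73 and 7.95 CPM and the model at 8.97 and 6.24 CPM. The model libraries lay on both sides of the control libraries, with a log2 fold change of -0.04 ± 0.25, and the mean of both diets was 0.33 ± 0.18 (adjusted p = 0.563).

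Ctla4, the inhibitory receptor that competes for the same ligands as CD28, was near the lower end of what these libraries measure, with 34 to 77 counts in each. On the control diet it was at 1.78 and 1.87 CPM in control mice and at 3.598 and 3.95 CPM in the model. Its libraries did not overlap, and the log2 fold change was 1.05 ± 0.33 (adjusted p = 0.457, edgeR), or 0.98 without replicate 2 and 1.11 without replicate 1 of the model. With TJ-41 the order was the opposite, with 2.51 and 3.89 CPM in control mice and 2.14 and 1.74 CPM in the model. Again the libraries did not overlap, and the log2 fold change was -0.72 ± 0.33 (adjusted p = 0.761). It was -0.37 without replicate 2 and -0.996 without replicate 1 of the control mice on TJ-41. The mean of both diets, 0.16 ± 0.23, therefore averages values of opposite sign. The processed pseudogene Rpl18-ps1 lies within the bounds of Ctla4 without sharing exon bases.

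Foxp3 (ENSMUSG00000039521), the transcription factor of regulatory T cells, lies on chromosome X at 7573644 to 7595245, plus strand. It had 27 to 59 counts in a library. On the control diet it was at 1.78 and 1.66 CPM in control mice and at 1.41 and 2.31 CPM in the model, and on the TJ-41 diet at 2.46 and 2.27 against 3.08 and 1.64 CPM. In both comparisons the model libraries enclosed the control libraries. The log2 fold changes were 0.11 ± 0.41 and -0.01 ± 0.40, and the 95% confidence interval of the mean of both diets ran from -0.59 to 0.69, and thus included differences of either sign. Foxp3 shares 18.6% of its exon bases with Flicr, on the same strand, and 12.9% with Ccdc22, on the opposite strand, and reads from those parts cannot be assigned with certainty.

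Taking all 10 genes on the TJ-41 diet, 0 of the 10 genes were called between the model and control mice, beside 0.0779% of all genes, and 0 had an unadjusted p under 0.05 (edgeR), beside 6.56%. Over both diets, 4 of the 10 were higher at an unadjusted p under 0.05 (Cd3e, Cd3g, Cd4 and Cxcr6) and none was lower, beside 6.18% of all genes that were higher and 4.21% that were lower. The median log2 fold change of the 10 was 0.10 on the TJ-41 diet and 0.29 over both diets. Without replicate 1 of the model on the TJ-41 diet, these medians became -0.10 and 0.15, and without replicate 2 of that group the former was 0.40.

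The 2 diets were compared within control mice and within the model. In control mice, none of the 10 genes was called, and neither was any other gene by the quasi-likelihood test on all 8 libraries (0%). DESeq2 called 10 genes, edgeR's exact test 6 and the quasi-likelihood test on only the 2 groups 5, none of them among the 10 genes, and 1.64% of all genes had an unadjusted p under 0.05. Among the 10, the 3 genes Cxcr6, Ctla4 and Icos were higher on TJ-41 at that level, beside 1.1% of all genes that were higher. Cxcr6 was at 14.8 and 16.6 CPM on TJ-41 against 9.52 and 7.94 CPM, a log2 fold change of 0.85 ± 0.31. Icos was at 7.73 and 7.95 against 4.97 and 4.93 CPM (0.66 ± 0.25), and Ctla4 at 2.51 and 3.89 against 1.78 and 1.87 CPM (0.81 ± 0.33, or 0.46 without replicate 2 and 1.08 without replicate 1 of the control mice on TJ-41). All 3 had an adjusted p of 0.996 (edgeR). Their libraries did not overlap between the diets, nor did those of Cd4 and Foxp3, which were also higher on TJ-41; 19.1% of all genes were higher in this way. Cd3d lay lower on TJ-41 in both libraries, which also held for 19.1% of all genes, and the remaining log2 fold changes lay between -0.38 and 0.46.

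The control libraries on the control diet enter both this comparison and that of the model on the control diet. Side by side, Cxcr6 differed from those libraries by 1.41 in the model and by 0.85 in TJ-41-fed control mice, Icos by 0.71 and 0.66, Ctla4 by 1.05 and 0.81, and Cd3g by 0.93 and 0.14, all on the log2 scale. Over all alternatives, the log2 fold change of Cxcr6 between the diets in control mice ran from 0.72 to 0.98.

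In the model, none of the 10 genes was called between the diets, where 0.00487% of all genes were. At an unadjusted p under 0.05, Ctla4 and Cd3g were lower on TJ-41, beside 2.1% of all genes. Ctla4 was at 2.14 and 1.74 CPM on TJ-41 and at 3.598 and 3.95 CPM on the control diet (-0.96 ± 0.33 on the log2 scale), and Cd3g was at 22.3 and 17.6 against 28.0 and 26.6 CPM, or -0.45 ± 0.20 (adjusted p = 0.991 for both, edgeR). Neither overlapped between the diets, nor did Cd3d, and 14.9% of all genes were lower without overlap. Of the 10 log2 fold changes, 9 were below 0, while 47.6% of all genes were above 0, with a median of -0.29, and Foxp3 was the exception at 0.34 ± 0.40. Without replicate 2 of the model on the control diet, Ctla4 was at -0.89 and Cd3g at -0.49, and without replicate 1 they were at -1.02 and -0.41. Without replicate 2 of the model on TJ-41, Cd3g was at -0.29.

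Whether the diet acted differently in the model and in control mice was tested by the interaction term. None of the 10 genes was called and neither was any other gene (0%) by the quasi-likelihood test on all 8 libraries, while DESeq2 called 17, none of them among the 10, and 672 genes had an unadjusted p under 0.05. At an unadjusted p under 0.05 the interaction was negative for Ctla4 (-1.77 ± 0.46) and Cxcr6 (-1.13 ± 0.43), which was true of 2.01% of all genes, and the adjusted p was 0.999 for both (edgeR). For Ctla4 the diet values were 0.81 in control mice and -0.96 in the model, and for Cxcr6 they were 0.85 and -0.29. Without replicate 2 of the model on the control diet the interaction was -1.69 for Ctla4 and -1.41 for Cxcr6, and without replicate 1 it was -1.82 and -0.76.

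**Figure D3:**
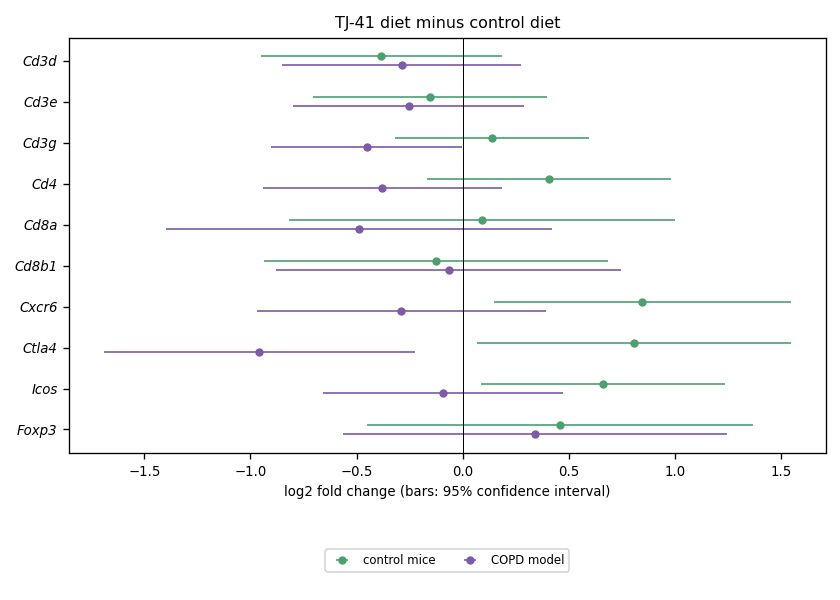
Log2 fold change of TJ-41 against control feeding (x axis) for the 10 genes in control mice (green) and in the COPD model (purple), with 95% confidence intervals. Cxcr6, Ctla4 and Icos lie above 0 in control mice, and Ctla4 lies at 0.81 in control mice and at -0.96 in the model.

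Each level was then set against the summed level of Cd3d, Cd3e and Cd3g, which every T cell carries. The sum was 33.7 and 30.8 CPM in control mice on the control diet, 29.6 and 31.5 on the TJ-41 diet, and 50.8 and 49.1 in the model on the control diet. For 100 CPM of Cd3, Cxcr6 was at 28.3 and 25.8 CPM in control mice on the control diet. It was at 50 and 52.7 in control mice on TJ-41, at 55.7 and 36.8 in the model on the control diet, and at 54.6 and 41.8 in the model on TJ-41. The control mice on the control diet thus held the lowest 2 of the 8 values. In the comparison of the model with control mice on the control diet, the Cxcr6 ratio was higher without overlap, as was that of 1.89% of all genes. Cd4 and Ctla4 were higher in the same way. For 100 CPM of Cd3, Cd4 was at 28.6 and 42.7 in the model against 28.3 and 27.1 in control mice. Replicate 1 of the model thus lay barely above control mice for Cd4. Ctla4 was at 7.08 and 8.04 against 5.28 and 6.06. On TJ-41 the ratios of Cd4 and Ctla4 lay the other way, at 35.7 and 34.6 in the model against 40.7 and 37.1 in control mice for Cd4 and at 4.85 and 5.21 against 8.48 and 12.4 for Ctla4. The ratios of 5 genes (Cd4, Cd8a, Ctla4, Icos and Foxp3) were lower in the model on this diet without overlap, as were those of 50.1% of all genes.

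The ratio of Icos to Cd3 did not separate the model from control mice on the control diet, at 15.4 and 17.1 against 14.8 and 16.0. It was higher in TJ-41-fed control mice, at 26.1 and 25.3, and at 20.4 and 18.7 in the model on TJ-41. Between the diets in control mice, the ratios of Cd4, Cxcr6, Ctla4, Icos and Foxp3 were all higher on TJ-41 without overlap, as were those of 26.9% of all genes. The Foxp3 ratio was 5.28 and 5.39 in control mice on the control diet and 2.77 and 4.70 in the model, the lower pair, where 70% of all genes were lower. The Cd8b1 ratio was lower as well, at 17.4 and 8.35 in the model against 22.2 and 19.5. These ratios rest on the same libraries as the levels above and were not tested.

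**Figure D4:**
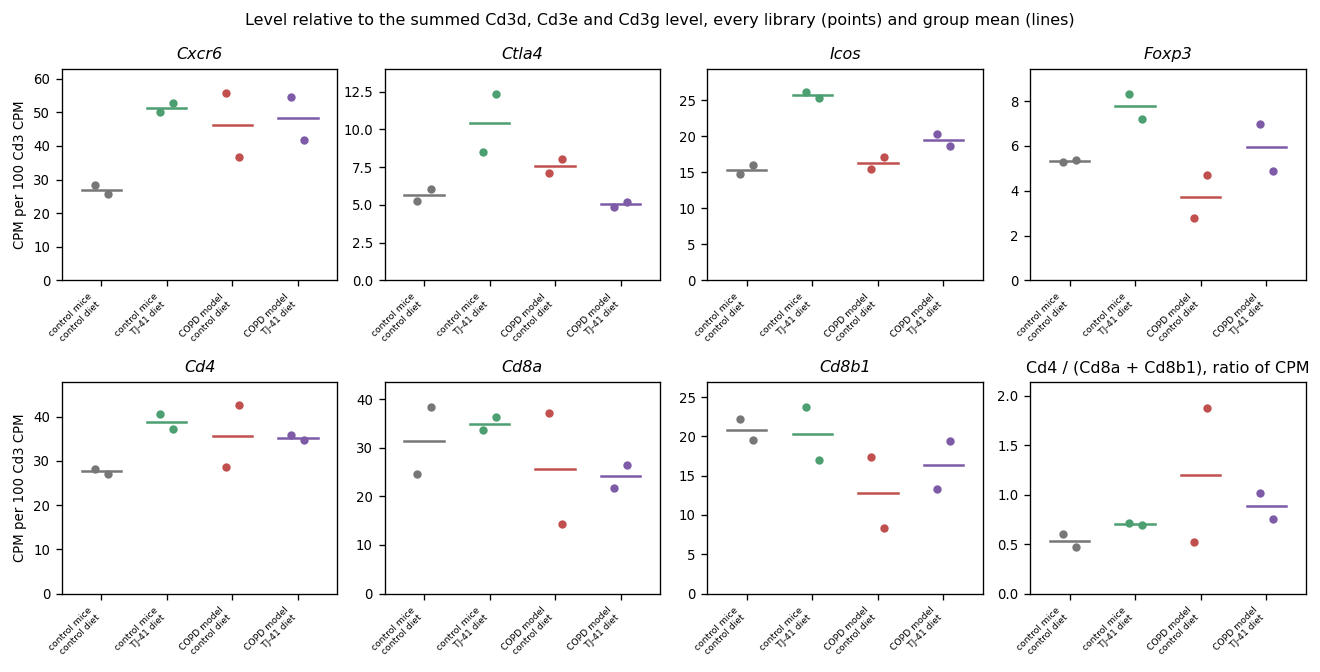
Level of 7 genes for 100 CPM of summed Cd3d, Cd3e and Cd3g, and the ratio of Cd4 to the sum of Cd8a and Cd8b1 CPM, in each library (points) with group means (lines), on linear axes from 0. For Cxcr6 both control mice on the control diet (28.3 and 25.8) lie below all other libraries.

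Further genes of T cell biology were taken from lists. Over both diets, 6 of 7 constant genes of the T cell receptor were higher in the model, with a median log2 fold change of 0.42, beside a median of -0.0017 and 49.8% of genes above 0 over all genes tested. None was called, and 2 were higher at an unadjusted p under 0.05. These were Trac (0.59 ± 0.20, adjusted p = 0.329) and Trbc2 (0.42 ± 0.16, adjusted p = 0.388, edgeR), named after their values were seen. Tcrg-C1 was at 0.73 ± 0.32 and Tcrg-C2 at 0.61 ± 0.27, both constant genes of the gamma chain, while Trdc of the delta chain was at 0.23 ± 0.29 and Trbc1 at -0.29 ± 0.19. Trbc1 and Trbc2 are nearly identical, as are the gamma chain genes among themselves, and their reads cannot be separated with certainty.

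Of 20 genes of T cell signalling and the T cell surface, 16 were higher in the model over both diets, with a median of 0.26. It was 0.40 without replicate 2 and 0.21 without replicate 1 of the model on the control diet. None was called, while 6 were higher and 1 was lower at an unadjusted p under 0.05. Thy1, a surface glycoprotein of mouse T cells that is also made by fibroblasts, was at 28.9, 26.2, 29.2 and 26.2 CPM in control mice and at 46.6, 68.7, 54.5 and 44.4 CPM in the model. All model libraries were higher, and the log2 fold change of 0.95 ± 0.15 passed the false discovery rate (adjusted p = 0.0379, edgeR) but not the fold threshold. Sit1, an adaptor that dampens receptor signalling, was at 1.51 ± 0.33 (adjusted p = 0.119). In the other direction, Cd2, an adhesion molecule of T and NK cells, was at 37.6, 37.3, 31.2 and 29.5 CPM in control mice and at 27.3, 18.7, 19.3 and 22.9 CPM in the model. Its libraries did not overlap, and the log2 fold change was -0.62 ± 0.15 (adjusted p = 0.147). Cd27 was at -0.39 ± 0.18 and Cd28 at 0.12 ± 0.28.

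Among 13 other checkpoint and costimulatory receptors, 9 were higher in the model and the median was 0.30, or 0.18 without replicate 2 of the model on the control diet. Again none was called, and 3 were higher at an unadjusted p under 0.05. Pdcd1, which encodes the checkpoint receptor PD-1, was at 1.40 ± 0.51 (adjusted p = 0.376), Tnfrsf9, which encodes 4-1BB, at 1.37 ± 0.44 (adjusted p = 0.303), and Tigit, named after its values were seen, at 0.89 ± 0.35 (adjusted p = 0.408, edgeR). Replicate 2 of the model on the control diet held the highest value of both Pdcd1 (3.74 CPM) and Tnfrsf9 (10.3 CPM). The remaining model libraries were at 1.02 to 1.57 CPM for Pdcd1 and at 2.61 to 3.32 CPM for Tnfrsf9. They overlapped with the control libraries, which reached 1.24 and 3.03 CPM. Cd160 and Btla, both receptors of HVEM, were lowest, at -0.65 ± 0.32 and -0.28 ± 0.29. The ligands were spread evenly, with 6 of 11 tested higher and a median of 0.01. Icosl, the ligand of ICOS, was at 0.01 ± 0.12, and Cd80 and Cd86, the ligands of CTLA4, were at -0.22 ± 0.21 and -0.05 ± 0.16. Pdcd1lg2 and Cd274, the ligands of PD-1, were at 0.56 ± 0.25 and 0.27 ± 0.25, and Tnfrsf14, which encodes HVEM, was at -0.18 ± 0.26.

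The 13 transcription factors of T cells had a median of 0.01, or 0.07 without replicate 2 of the model on the control diet, with 7 higher and 3 of them at an unadjusted p under 0.05. Bcl11b was at 0.46 ± 0.20 (adjusted p = 0.480) and Gata3, named after its values were seen, at 0.42 ± 0.14 (adjusted p = 0.344, edgeR). Ikzf3 and Eomes were lowest, at -0.38 ± 0.37 and -0.35 ± 0.35. Of the 10 tested genes linked to regulatory T cells, 6 were higher, and the median was 0.08. Lrrc32, which presents latent TGF-beta, was at 0.27 ± 0.17 and Ebi3 at 0.26 ± 0.23, while Entpd1, the ectonucleotidase CD39, was at -0.17 ± 0.11 and Ikzf4, which encodes the factor Eos, at -0.67 ± 0.19 (adjusted p = 0.225). Ccr8, a chemokine receptor of regulatory T cells named after its values were seen, was at 1.44 ± 0.37 (adjusted p = 0.171, edgeR), at a mean of only 0.519 CPM.

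Of 18 genes of tissue residency, egress and homing, 9 were higher and 9 lower, with a median of 0.05, or -0.23 without replicate 1 of the model on the control diet. Cxcr3, a chemokine receptor of activated T cells, was at 3.56, 2.80, 2.97 and 2.87 CPM in control mice and at 5.16, 6.97, 6.36 and 5.57 CPM in the model. All 4 model libraries were higher, and the log2 fold change was 0.98 ± 0.20 (adjusted p = 0.0901, edgeR). Ccr4 was at 0.64 ± 0.35 and Cxcl16 at 0.23 ± 0.19. Cxcr5, the receptor that leads B cells and follicular T cells into follicles, was at -0.58 ± 0.25 (adjusted p = 0.468). Of 10 helper T cell cytokines, only 4 passed the filter on low counts. Their median was 0.21, or -0.48 without replicate 1 of the model on TJ-41, and Il4 was at -0.19 ± 0.25.

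**Figure D5:**
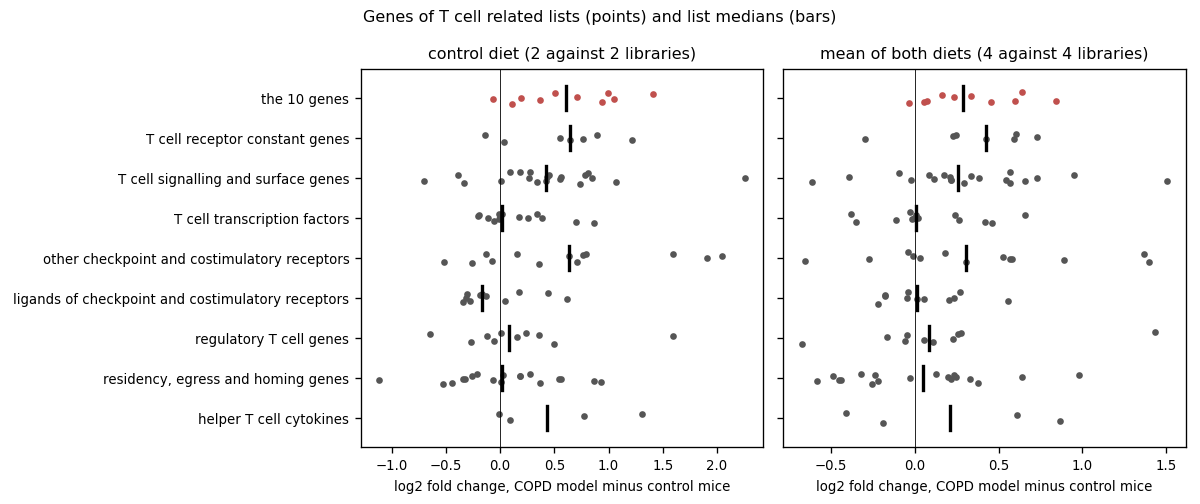
Log2 fold change of the COPD model against control mice (x axis) for the 10 genes (red) and for the tested genes of 8 T cell related lists (grey), on the control diet (left) and as the mean of both diets (right); points are genes, shifted vertically for display, and black bars are medians. Over both diets the bar stands at 0.29 for the 10 genes, at 0.42 for the receptor constant genes and at 0.05 for the residency, egress and homing genes.

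Markers of other cells that carry some of these transcripts were read in the same libraries. All 9 B cell markers were lower in the model over both diets, with a median of -0.49 and none called. Their sum was 399 and 423 CPM in control mice and 433 and 199 CPM in the model on the control diet, and 409 and 400 against 289 and 260 CPM on TJ-41. Of 11 markers of NK cells and innate lymphoid cells, 2 were higher and the median was -0.22, and the sum ran from 95.4 to 175 CPM with overlap between the 4 model and the 4 control libraries. Of 8 dendritic cell markers, which bear on Cd4 and Cd8a, 2 were higher, with a median of -0.06 and sums of 141 to 171 CPM. Macrophage marker sums ran from 7062 to 12777 CPM, with 6 of 9 higher and a median of 0.33. Of 5 markers of leukocytes in general, 2 were higher with a median of -0.13, and Ptprc was at -0.26 ± 0.35.

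Of 7 plasma cell markers, 6 were higher in the model over both diets, with a median of 0.52 and 1 called. Their sum was 247 to 391 CPM in the 4 control libraries and 531 to 1146 CPM in the 4 model libraries, where Jchain alone made up most of it. Jchain, the joining chain of IgA and IgM, was called, at 43.3, 63.3, 201 and 185 CPM in control mice and 803, 521, 895 and 314 CPM in the model (2.64 ± 0.32, adjusted p = 0.00969, edgeR). Lymph node stroma was read to see whether lymphoid tissue had been sampled unequally. Madcam1 and Glycam1 had at most 2 counts in any library, and the sum of that list was 85.6 CPM in replicate 2 of the model on the control diet and 35.9 to 65.6 CPM elsewhere. Of the 5 thymocyte markers, Rag2 was at 0 counts in 8 of 8 libraries, Ptcra had at most 1 count and Rag1 at most 6. The other 2 passed the filter on low counts, and the list summed to 14.9 to 22.5 CPM. The 9 markers of lung epithelium and endothelium summed to 67272 CPM in replicate 2 of the model on the control diet and to 32343 to 46660 CPM elsewhere. The part of B cell, plasma cell, stroma and epithelial markers in the T cell results was not tested.

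Among the 18047 genes averaging 1 CPM or more, those whose log2 CPM over the 8 libraries was most like the mean of the 3 Cd3 genes were Trbc2 (Pearson r 0.959), Flt3 (0.954), Bnip3 (0.952), Tnip3 (0.945), Ighv1-77 (0.943), Igkv4-63 (0.942), Kctd13 (0.941), Gm6741 (0.938), Rpl30-ps1 (0.937) and Gm48609 (0.928). Trbc2 is a T cell receptor gene, Flt3 encodes a receptor of dendritic cells and their precursors, and Ighv1-77 and Igkv4-63 are antibody gene segments. The 8 points are 4 groups of 2, and they were ranked out of many genes, so these values describe the libraries only. Between the 10 genes, r was 0.88 for both Cd3g with Cd4 and Cxcr6 with Icos, 0.75 for Cd3d with Cd3e, 0.62 for Cd8a with Cd8b1 and -0.45 for Cd4 with Cd8b1.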

How the data were processed

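RNA of 8 mouse lung libraries was sequenced, 2 in each of 4 groups taken from the labels. The authors deposited raw counts of reads per Ensembl gene, without normalization. The submitters' processing notes name HISAT2, edgeR and the genome mm10, and the study's methods name CLC Genomics Workbench. The counting program, annotation release, strand setting and handling of multiply mapped reads are not given in the sources used here. The diet label is TJ4 in the treatment field and TJ41 in the titles, and both were read as TJ-41.

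Of 52636 gene identifiers, 52489 were found in GENCODE M21. Counts were analysed in R 4.3.3 with edgeR 4.0.16 (filterByExpr with a minimum count of 10, TMM, quasi-likelihood test with Benjamini-Hochberg adjustment, group means with 4 residual degrees of freedom, common biological coefficient of variation 0.208). CPM and RPKM were computed from the counts, RPKM with the exon length of GENCODE. No libraries were copies of each other. Replicate numbers did not pair libraries, since the correlations of replicate differences between groups were -0.234 to 0.108. Promoter windows came from RefSeq, GRCm38.p6.

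The genes and lists were chosen with earlier results of these data known, so no p-value over a list is given. Named were the 10 genes, in the diet comparisons only those with an unadjusted p under 0.05 or a log2 fold change beyond 1, and from each T cell list the 2 highest and the 2 lowest in the mean of both diets with a mean of at least 1 CPM, of which 2 are not reported here. Called genes, Cxcl16, Icosl, Cd80, Cd86, Ptprc and Cd28, and the 10 genes most like Cd3 were named too. Of 10 listed receptor constant genes, 7 names were found.

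On simulated counts of the comparison of the COPD model with control mice on the control diet, with 20546 genes and 200 changed, the test recovered 87 of 100 genes changed 4-fold and 32 of 100 changed 2-fold at the false discovery rate, and 9 unchanged genes passed it. The alternatives were DESeq2 1.42.0, edgeR's exact test, other scalings and filters, fewer groups in the fit, a replicate block and left-out libraries.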

Additional observations from a re-analysis of the deposited data

How the results depend on the processing

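Among the 10 genes, the number called changed under alternatives in the comparison of the COPD model with control mice on the control diet, where it was 0. It was 1 (Cxcr6) with DESeq2, with edgeR's exact test and with all genes of at least 1 count, and 0 to 2 when a library was left out (Cd4 and Cxcr6 without replicate 1, Cxcr6 without replicate 2 of that model group). In the other 5 comparisons it was 0 under every alternative run. The replicate block changed no call, with Cxcr6 at 1.39 and 0 genes of the 10 called, and since the numbers do not pair libraries it is given only here. Over all genes, 25 were called on the control diet, 171 with DESeq2, 210 with the exact test, 147 with all genes of at least 1 count, and 3 to 1343 when a library was left out, the latter without replicate 1 of the model. On the TJ-41 diet the numbers were 16, 125, 137, 89 and 2 to 168, with 248 for only the 2 groups compared and 29 with the loess correction, and over both diets 91, 245 with DESeq2, 278 with all genes and 15 to 873. For TJ-41 in the model they were 1, 12, 6, 2 and 0 to 728, in control mice 0, 10 with DESeq2, 6 with the exact test and 5 for only the 2 groups, and for the interaction 0, 17 with DESeq2, 6 with all genes and up to 14 without a library. The cause was not tested.

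Signs of single genes turned under some alternatives. On the TJ-41 diet, Cd8b1 was at 0.0043 with library size alone and at 0.030 with the block, Foxp3 at 0.00795 with library size alone, and Icos at 0.17 with a loess correction for exon length and GC content, an alternative chosen after the data were seen, which put Foxp3 at -0.046 over both diets. Leaving out a library, log2 fold changes ran as follows. On the control diet they were -0.51 to 0.91 for Cd8a, -0.72 to 0.39 for Cd8b1 and -0.29 to 0.42 for Foxp3. On the TJ-41 diet they were -0.032 to 0.42 for Cd4, -0.19 to 0.21 for Cd8b1, -0.16 to 0.62 for Cxcr6, -0.32 to 0.20 for Icos and -0.52 to 0.39 for Foxp3. Over both diets they were -0.36 to 0.35 for Cd8a, -0.36 to 0.20 for Cd8b1 and -0.21 to 0.25 for Foxp3. Ctla4 and Foxp3 had under 80 counts in every library. Cd8a had more, and its standard error was no smaller than that of Foxp3 over both diets, at 0.285 against 0.284.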
